A study of Homo sapiens with 3 samples.

Results

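Of the 4158 gene names that received at least 1 MEIS1 ChIP-seq peak in CWR22Rv1 LV-MEIS1 cells, 168 received 4 or more, and these genes with many peaks are described here. They were found by counting the rows of each gene name in the annotated LV-MEIS1 peak list, and they hold 861 of its 5968 peaks. For the same names, 111 of the 2047 peaks of the HOXB13ko-LV-MEIS1 list were taken as well. Because the number of LV-MEIS1 peaks chose the genes, that number is a description and was not tested.

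CWR22Rv1 is a human prostate carcinoma line derived from a relapsed xenograft. Both lines compared here expressed MEIS1 from a lentivirus and were grown in medium with puromycin. The LV-MEIS1 line retained HOXB13, and in the HOXB13ko-LV-MEIS1 line HOXB13 had been knocked out by CRISPR, with several edited clones recombined into 1 population. Chromatin was precipitated with an antibody to MEIS1, 3 times in the LV-MEIS1 line and 2 times in the HOXB13ko-LV-MEIS1 line. Peak calling against 1 input used the pool of each line, so each line gave 1 list and no spread between replicates can be stated. MEIS1 was overexpressed, so the peaks describe a line with added MEIS1 and not endogenous levels. The pooled depth was 202428594 tags with HOXB13 and 105763683 tags without it, against 39102495 tags of input. The peak lists carry no value that checks the deletion itself.

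MEIS1 is a homeodomain protein of the TALE class that binds DNA at a TGACA core, often beside a HOX protein that contacts an adjoining AT-rich site. HOXB13 is the posterior HOX protein of the prostate epithelium, and it prefers sites that contain TTTAT or TTTAC. A ChIP-seq peak marks DNA recovered with the factor more often than from input, and the nearest transcription start site gives the peak its gene name, whether or not that gene is controlled from it.

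The following 51-base windows of hg38, forward strand, are centred on LV-MEIS1 summits of genes discussed below. They are examples that all hold the MEIS1 core, and some are not the highest peak of their gene. The highest PDE4D peak, at 13.4-fold, is not shown. Also left out are the TBX3 peak of 12.5-fold and the CARTPT peak of 17.8-fold, whose windows lack the core. In the whole set, the core lay near 55.2% of the 861 summits. Capitals mark TGACA or its reverse complement TGTCA. Fold enrichment is the pileup at the summit over the local input background. The RNLS peak had 18.7-fold enrichment, rank 2 of the whole list, the SDK1 peak 11.1-fold, the FOXA1 peak 10.9-fold, the PDE4D peak 8.19-fold and the upstream TBX3 peak 11.6-fold, and none of these overlapped a HOXB13ko-LV-MEIS1 peak. The HSPB1 peak (18.6-fold), the COBL peak (17.7-fold) and the EHF peak (13.9-fold) did.
RNLS, intron 4, chr10:88440180-88440230: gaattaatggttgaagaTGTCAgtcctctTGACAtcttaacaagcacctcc
SDK1, intron 1, chr7:3570814-3570864: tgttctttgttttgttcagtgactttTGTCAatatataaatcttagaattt
FOXA1, intron 14 of MIPOL1, chr14:37527483-37527533: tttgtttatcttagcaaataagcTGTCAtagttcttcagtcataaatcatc
PDE4D, intron 3, chr5:59830131-59830181: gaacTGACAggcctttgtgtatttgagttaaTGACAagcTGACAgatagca
TBX3, intergenic, chr12:114813334-114813384: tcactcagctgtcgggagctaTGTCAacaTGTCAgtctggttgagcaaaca
HSPB1, intergenic, chr7:76294791-76294841: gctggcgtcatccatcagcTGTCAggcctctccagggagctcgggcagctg
COBL, intergenic, chr7:51606993-51607043: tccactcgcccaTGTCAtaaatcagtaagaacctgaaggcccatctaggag
EHF, intron 6, chr11:34654970-34655020: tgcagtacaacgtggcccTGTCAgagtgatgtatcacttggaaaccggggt

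Some peaks of these genes held the core joined to a HOX word. TGACANNTTTAT, read on both strands within 50 bp of the summit, was found in 7 of the 861 peaks (0.813%) and in 55 of all 5968 LV-MEIS1 peaks (0.922%). Examples from 5 genes are shown with the whole joined word, or its reverse complement, in capitals. None of the 7 overlapped a HOXB13ko-LV-MEIS1 peak, and 3 of the 55 did, beside 7.66% of all LV-MEIS1 peaks. The 7 peaks are too few to be told apart from that share.
GPM6A, intron 1, chr4:175714696-175714746: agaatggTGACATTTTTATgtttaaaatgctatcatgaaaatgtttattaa
HIVEP2, intron 1, chr6:142846549-142846599: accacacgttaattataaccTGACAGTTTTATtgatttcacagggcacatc
HULC, intron 3 of LOC100506207, chr6:8749611-8749661: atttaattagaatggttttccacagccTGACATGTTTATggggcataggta
CENPN, intron 2 of CMC2, chr16:80996742-80996792: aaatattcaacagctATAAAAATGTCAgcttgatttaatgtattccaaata
SCHLAP1, intron 1, chr2:180723400-180723450: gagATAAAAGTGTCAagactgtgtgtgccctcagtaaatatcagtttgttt

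The number of peaks per gene name fell steeply. There were 3088 names with 1 peak, 709 with 2 and 193 with 3, then 79 with 4, 46 with 5, 16 with 6, 13 with 7, 8 with 8, 3 with 9, 2 with 12 and 1 with 13. The genes just inside and just outside the limit of 4 were alike in peak height. Among names with 3 peaks, the highest single peaks belonged to LOC153910 (17.0-fold), LINC01848 (16.1-fold) and FOLH1 (15.3-fold). Among names with 4 peaks, they belonged to HSPB1 (18.6-fold), LOC646736 (17.7-fold) and RERE (13.8-fold).

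**Figure D1:**
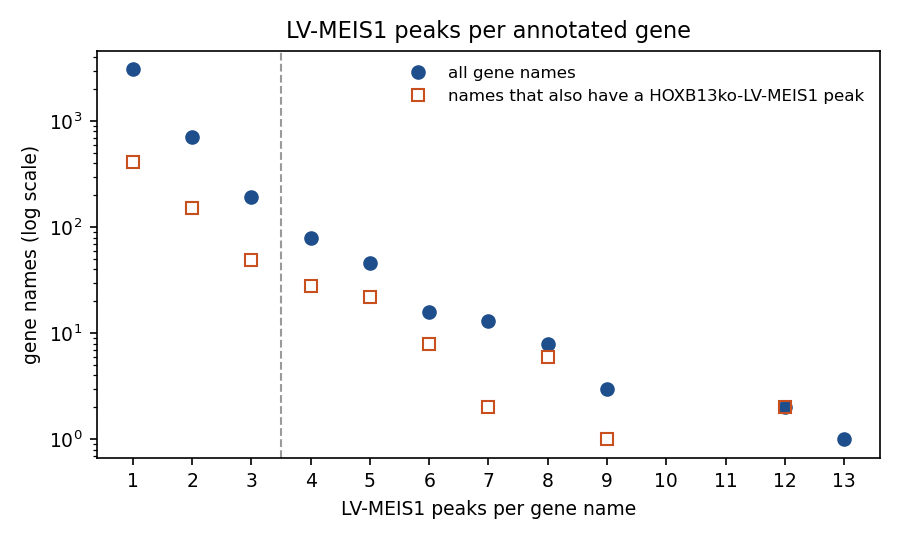
Number of gene names on a log scale (vertical axis) by the number of LV-MEIS1 peaks a name received (horizontal axis); filled points are all names, open squares those that also received a HOXB13ko-LV-MEIS1 peak, and the dashed line separates 3 from 4 peaks. The 168 genes described here lie to its right, and 69 of them also had a peak of the name in the HOXB13ko-LV-MEIS1 list.

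EPHA3, an ephrin receptor tyrosine kinase, led with 13 peaks. Its fold enrichments ran from 3.50 to 8.02, with a median of 6.99. A single peak lay in the 5′ UTR, 3 lay in EPHA3 introns and 9 were intergenic beyond its 3′ side, and the summits spanned 578 kb. None of the 13 overlapped a HOXB13ko-LV-MEIS1 peak, and that list had no EPHA3 peak. The local input background at these peaks, with a median of 6.00 scaled tags, was above the median of 3.34 over all LV-MEIS1 peaks.

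PDE4D, a cAMP phosphodiesterase, and RNU2-1, the U2 small nuclear RNA of the spliceosome, each received 12 peaks but had little else in common. The PDE4D peaks were spread over 1564 kb, 10 of them in PDE4D introns, with fold enrichments from 4.30 to 13.4, and none overlapped a HOXB13ko-LV-MEIS1 peak. The RNU2-1 peaks lay within 60.6 kb, and 11 of the 12 overlapped a HOXB13ko-LV-MEIS1 peak. The HOXB13ko-LV-MEIS1 list held 16 RNU2-1 peaks. The highest of them, at 15.2-fold, stood at percentile 99.5 of the fold enrichments of that list, and the highest LV-MEIS1 peak of RNU2-1, at 6.11-fold, stood at percentile 48.6 of its own list. No RNU2-1 summit of the LV-MEIS1 list had TGACA within 50 bp.

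The 3 names with 9 peaks were SDK1, LINC01309 and RNVU1-18. SDK1, a sidekick cell adhesion protein of the immunoglobulin family, held all of its peaks in its own introns. Their fold enrichments were 6.20, 4.68, 8.37, 5.20, 11.1, 8.09, 9.20, 4.92 and 9.05 from the first to the last along the chromosome, and TGACA was near 7 of the 9 summits. LINC01309, a long noncoding RNA, had 9 intergenic peaks at a median distance of 746 kb. None of the SDK1 or LINC01309 peaks overlapped a HOXB13ko-LV-MEIS1 peak. RNVU1-18, a variant U1 small nuclear RNA, gathered peaks from chromosomes 1 and 14, and 7 of its 9 peaks did overlap one.

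The 8 names with 8 peaks were TBX3, COBL, CARTPT, ROBO1, CCDC192, DLEU1-AS1, LOC101929411 and LOC730338. COBL, an actin nucleator, had a peak of 17.7-fold 290 kb upstream, and its remaining peaks reached 8.07. CARTPT, the precursor of a neuropeptide, had peaks of 17.8-fold and 13.7-fold, both overlapped in the HOXB13ko-LV-MEIS1 list, and 6 other peaks of at most 9.23 that were not. ROBO1, a receptor for SLIT guidance proteins, had 8 intergenic peaks over 2172 kb, from 3.85 to 6.79, none of them overlapped. CCDC192 had TGACA near 7 of its 8 summits.

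The 13 names with 7 peaks were AFF3, ANKRD30A, C3orf58, CCSER1, DIAPH2-AS1, LINC01091, LRFN5, MIR1263, MIR4275, SCHLAP1, SLC16A7, TLE3 and ZBTB10. Of their 91 peaks, 1 (1.1%), at TLE3, overlapped a HOXB13ko-LV-MEIS1 peak, beside 7.66% of all LV-MEIS1 peaks. The share was 6.25% for names with 6 peaks and 7.81% for names with 8. SCHLAP1 is a long noncoding RNA known from aggressive prostate cancer, and 5 of its 7 peaks were intergenic upstream, 4 of them between 317 and 338 kb from the start site, with fold enrichments of 4.03, 11.7, 9.44 and 5.80. The 16 names with 6 peaks were ANXA1, CDK14, EHF, EIF3IP1, FOXA1, FSCB, GPC6-AS1, HULC, LOC101928052, LRMDA, MIR148A, MIR4735, MIR8066, MIR99AHG, PMEPA1 and QSOX1. CDK14, a cyclin-dependent kinase, had TGACA near all 6 of its summits, and PMEPA1, an androgen-induced inhibitor of TGF-beta signalling, near 1 of 6.

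**Figure D2:**
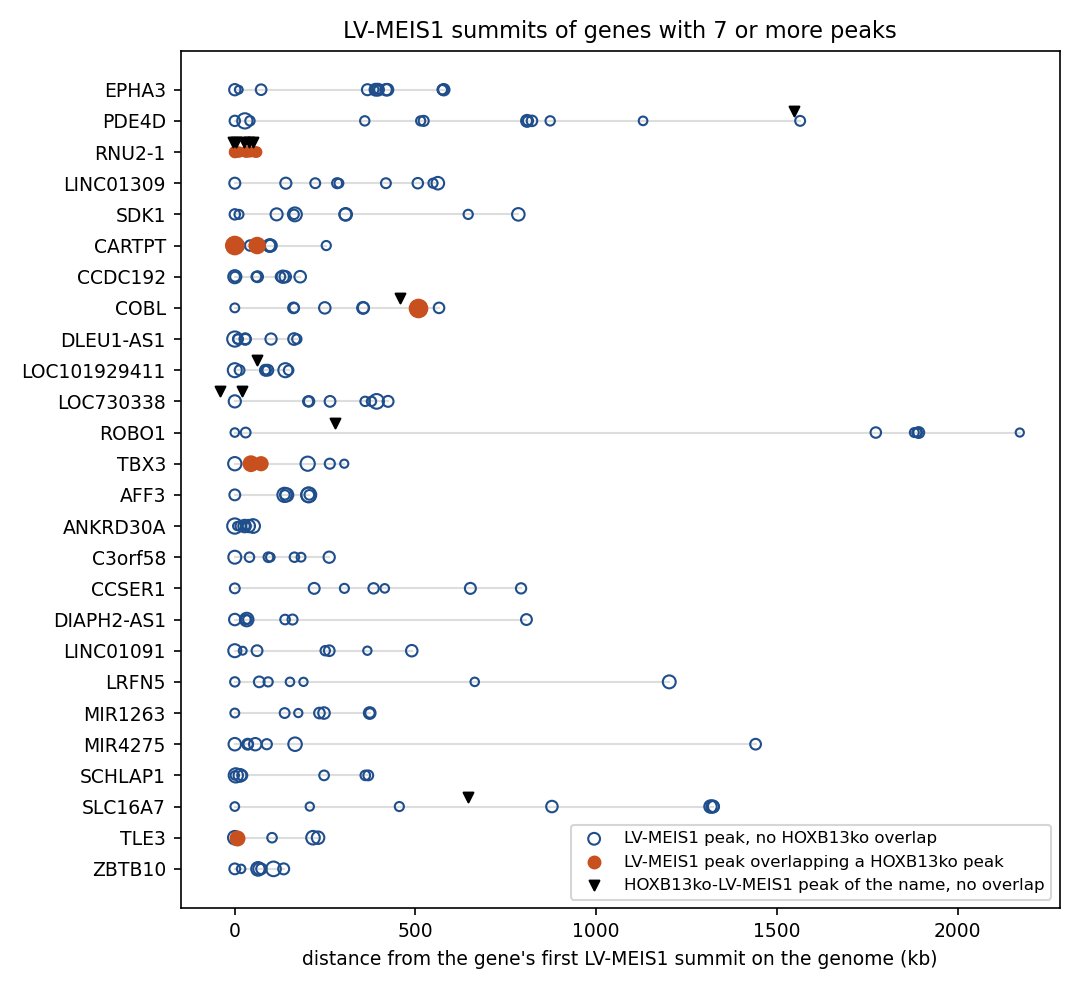
Summits of the 26 genes with 7 or more LV-MEIS1 peaks on 1 chromosome, as distance in kb from the gene's first summit (horizontal axis), 1 gene per row; circle area grows with fold enrichment, filled circles overlap a HOXB13ko-LV-MEIS1 peak, and triangles are HOXB13ko-LV-MEIS1 peaks of the name that overlap none. Filled circles appear only at RNU2-1, CARTPT, COBL, TBX3 and TLE3, and ROBO1 has the longest span, 2172 kb.

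The genes lay in wide stretches of DNA. Over the 163 genes whose peaks were on 1 chromosome or sequence, the span from first to last summit had a median of 229 kb, with 25% of the genes below 102 kb and 25% above 510 kb. It was under 50 kb for 18 genes and over 1000 kb for 16. The shortest spans belonged to MON2 (4 peaks in 4.0 kb of its introns), CLDN4 (8.38 kb), GUCY1A2 (10.5 kb), SP1 (13.4 kb) and CENPN (16.6 kb). CLDN4 encodes a tight junction protein of epithelia, and SP1 is a general transcription factor that binds GC boxes. The longest belonged to CBWD5 (27052 kb), ROBO1 (2172 kb), LOC102723360 (2057 kb), LOC101928622 (1739 kb) and PDE4D (1564 kb). CBWD5 and LOC102723360 are names given to several copies of duplicated DNA, so their spans run between copies.

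Within these spans the peaks were grouped. The gap between neighbouring summits of a gene had a median of 32.2 kb, and 213 of 685 gaps (31.1%) were under 10 kb. Between all neighbouring LV-MEIS1 summits the median gap was 189 kb, and 10.8% were under 10 kb. Since a gene with many peaks must hold neighbouring summits, the choice of genes itself shortens these gaps. In 86 of the 168 genes at least 3 summits fell within 50 kb, and in 42 genes at least 4 did. RNU2-1 had 9 summits within 50 kb, and EPHA3, ANKRD30A and PMEPA1 had 6 each. Most of the 7 AFF3 summits formed groups in introns 2 and 6, and the first along the chromosome stood 137543 bp from the next.

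The peaks were far from start sites. The median distance to the annotated transcription start site was 94.8 kb, against 23.1 kb for all LV-MEIS1 peaks. Of the 861 peaks, 419 (48.7%) lay beyond 100 kb and 12.3% beyond 500 kb, against 21.7% and 3.54% of all peaks. Promoters held 49 of them (5.69%, 95% Wilson interval 4.33 to 7.44), against 20.2% of all peaks. Introns held 44.0% and intergenic DNA 47.0%, and 31.8% lay in an intron of the very gene that named them. Intervals here and below cover counting error only. The median fold enrichment, 6.25, was near the 6.17 of all LV-MEIS1 peaks. Peaks take the name of the nearest start site, and the genes were chosen by their number of peaks. That choice can itself lengthen the distances and lower the promoter share, and its part was not tested. The median distance rose with the number of peaks, from 8834 bp for names with 1 peak to 120076 bp for names with 5, and varied above that.

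**Figure D3:**
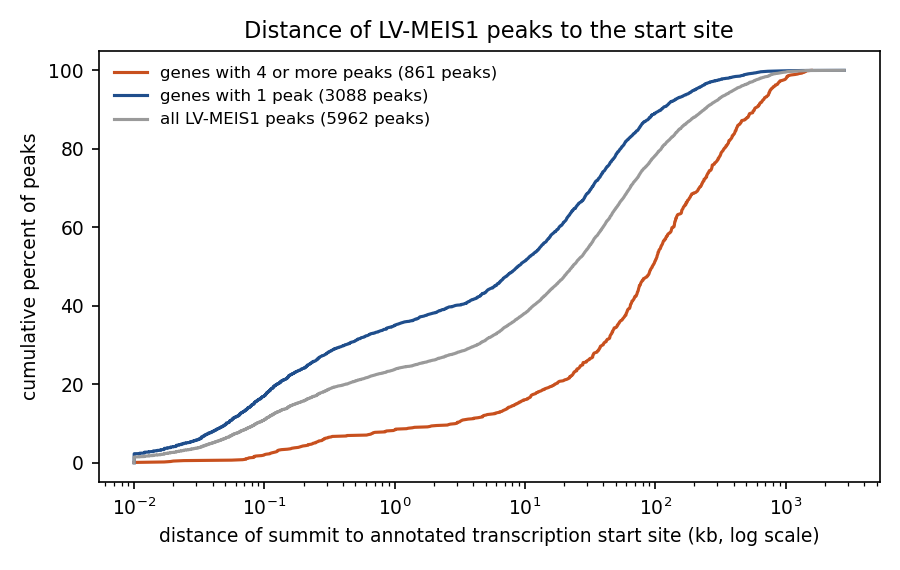
Cumulative percent of peaks (vertical axis) by distance of the summit to the annotated transcription start site in kb (horizontal axis, log scale; distances under 0.01 kb are drawn at 0.01), for the 861 peaks of genes with 4 or more peaks, the 3088 peaks of genes with 1 peak, and all LV-MEIS1 peaks with a distance. The curve of genes with 4 or more peaks lies to the right, with a median of 94.8 kb against 23.1 kb for all. Choosing genes by their number of peaks can itself favour long distances.

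No single arrangement was shared by the genes. A promoter peak was present at 36 of the 168 genes, and 100 genes had no peak within 10 kb of a start site. All peaks of 34 genes lay beyond 100 kb and all peaks of 47 genes within it. Peaks fell on both sides of the start site in 100 genes, only upstream in 22 and only downstream in 46. In 22 genes every peak was in the gene's own introns, as in SDK1, AFF3, CCSER1, CDK14, LRMDA and DLG2, and in 32 genes every peak was intergenic, as in LINC01309, ROBO1, MIR148A, ANXA1 and PMEPA1.

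The protein-coding genes of the set were long, and the DNA at the summits of the set was low in GC. The 106 protein-coding genes of the set had a median length of 184 kb, and 47.2% were over 200 kb, against a median of 40.4 kb and 11.2% for the protein-coding names with 1 peak. The lengths come from RefSeq (GRCh38.p14). Protein-coding genes made up 63.1% of the set and 73.8% of all names, and noncoding RNA genes 33.3% and 22.7%. The sequence within 50 bp of the summits had a median GC content of 36.6%, against 42.6% over all LV-MEIS1 peaks. The local input background had a median of 4.0 scaled tags, against 3.34 over all, and was higher at these peaks than at the other LV-MEIS1 peaks in 17 of the 20 chromosomes that held 10 or more of them. The part of gene length, base composition or input background in the number of peaks per gene was not tested.

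Most of the peaks had no counterpart without HOXB13. Of the 861 peaks, 62 (7.2%, 95% Wilson interval 5.66 to 9.12) overlapped a HOXB13ko-LV-MEIS1 peak by at least 1 bp, and 7.66% of all LV-MEIS1 peaks did. The share was thus near the background of the list. A peak that is missing from a list was not called there, and the HOXB13ko-LV-MEIS1 pool held fewer tags. No gene had all of its peaks overlapped, 130 of the 168 had none overlapped, 28 had 1 and 10 had 2 or more. Those 10 were RNU2-1, RNVU1-18, RNVU1-19, CARTPT, TBX3, EHF, RERE, DNAJB8-AS1, MIR8060 and LOC102723360.

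RNU2-1 and RNVU1-18 alone held 18 of the 62 overlapping peaks, and most of their peaks lay in copies of 1 sequence. In 8 genes, peaks shared a run of at least 30 identical bases on either strand within 100 bp of their summits, a criterion chosen after the data were seen. These were RNU2-1 (10 of 12 peaks), RNVU1-18 (7 of 9), ANKRD30A (6 of 7), LOC102723360 (5 of 5), LENG9 (4 of 4) and CBWD5, LINC01881 and UGT2B10 (3 of 4 each). Such peaks are copies of 1 sequence, and single-end reads of 50 bases cannot always be placed among copies, so they are not independent sites and their number is uncertain. Over all genes of the set, 41 peaks (4.76%) were copies in this sense, against 2.5% of the peaks of genes with 2 or 3 peaks. A pair of windows from each of ANKRD30A and RNU2-1 shows this, with the identical run in capitals, 39 bases at ANKRD30A and 49 bases at RNU2-1.
ANKRD30A, intron 19, chr10:37173705-37173755: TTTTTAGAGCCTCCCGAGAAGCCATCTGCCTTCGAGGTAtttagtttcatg
ANKRD30A, exon, chr10:37185494-37185544: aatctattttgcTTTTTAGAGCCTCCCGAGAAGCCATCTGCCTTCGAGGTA
RNU2-1, transcription termination site, chr17:43245580-43245630: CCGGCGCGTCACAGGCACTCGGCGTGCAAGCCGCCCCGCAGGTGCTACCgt
RNU2-1, transcription termination site, chr17:43277882-43277932: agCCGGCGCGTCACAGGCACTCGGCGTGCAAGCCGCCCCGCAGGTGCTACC

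The 8 genes held 21 overlapping peaks, 11 at RNU2-1, 7 at RNVU1-18, 2 at LOC102723360 and 1 at LINC01881, and ANKRD30A, LENG9, CBWD5 and UGT2B10 held none. Without these 8 genes, 41 of 812 peaks (5.05%, 95% Wilson interval 3.74 to 6.78) overlapped a HOXB13ko-LV-MEIS1 peak. The difference was largest near start sites. Within 10 kb of a start site, 29 of 138 peaks (21.0%) overlapped, against 10.8% of all LV-MEIS1 peaks at that distance, and without the 8 genes the share was 11.2% (12 of 107, interval 6.53 to 18.6). Between 10 and 100 kb the shares were 5.59% with them, 4.55% without them and 6.18% for all peaks. Beyond 100 kb the share was 3.82% with or without them and 4.86% for all peaks.

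**Figure D4:**
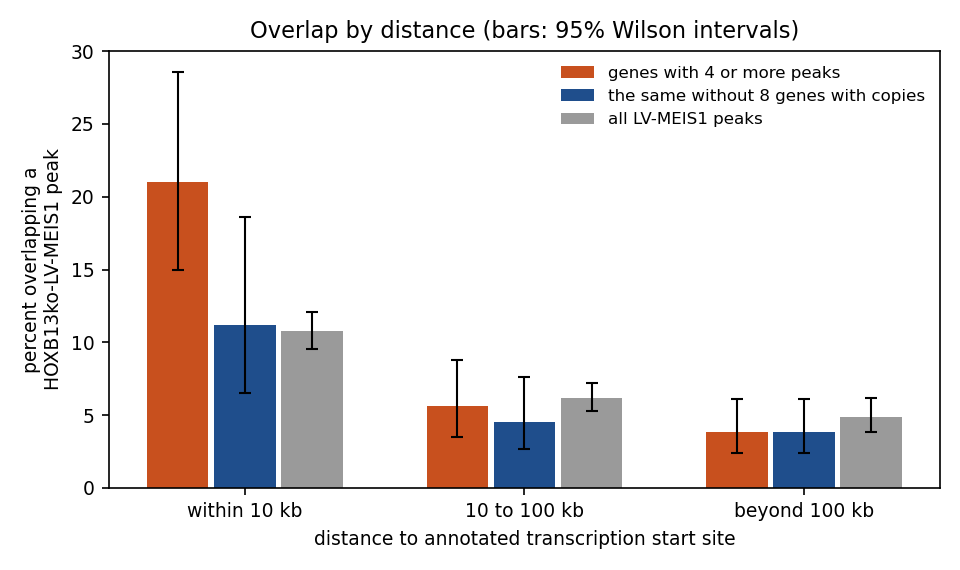
Percent of LV-MEIS1 peaks that overlap a HOXB13ko-LV-MEIS1 peak (vertical axis) by distance to the annotated start site (horizontal axis), for genes with 4 or more peaks, the same without the 8 genes with copies, and all LV-MEIS1 peaks; error bars are 95% Wilson intervals. Within 10 kb the share is 21.0% with the copies and 11.2% without them, beside 10.8% for all peaks.

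Outside the copies, 34 genes had at least 1 overlapping peak, and the overlapping peaks tended to be high. The 41 overlapping peaks had a median LV-MEIS1 fold enrichment of 10.5, and the 771 others a median of 6.19. Over all LV-MEIS1 peaks these medians were 8.34 and 6.11, so the same order held in the whole list. In 26 of the 34 genes the gene's highest peak was among those that overlapped, and in 1 gene the lowest was. The summits in both lists lay close together, with a median shift of 27.0 bp and at most 50 bp in 31 of the 41. At HSPB1, a small heat shock protein, the peak of 18.6-fold had a HOXB13ko-LV-MEIS1 summit 1 bp away, and the gene's other peaks, of 4.76, 4.88 and 5.61, did not overlap. At RERE, a nuclear receptor co-regulator, peaks of 13.8 and 9.20 overlapped among 4. Most high peaks still did not overlap. Of the 103 peaks of the whole set among the 10% highest fold enrichments of the list, 24 overlapped and 79 did not. Over all LV-MEIS1 peaks, 172 of the 597 peaks among the 10% highest overlapped, so most did not there either. At RNLS, which encodes renalase, the 5 intronic peaks had fold enrichments of 10.1, 9.28, 18.7, 6.95 and 4.83, and none overlapped.

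A gene name that occurred in both lists often marked different sites. The HOXB13ko-LV-MEIS1 list held a peak for 69 of the 168 genes (41.1%, 95% Wilson interval 33.9 to 48.6), and for 16.4% of all names with an LV-MEIS1 peak. The share was 13.3% for names with 1 LV-MEIS1 peak, 21.4% for names with 2, 25.4% for names with 3, 35.4% for names with 4 and 47.8% for names with 5. Above 5 peaks the names were few and the share varied, with 2 of 13 names at 7 peaks, 6 of 8 at 8 peaks and 0 of 1 at 13 peaks. Gene length was greater in the genes with many peaks as well, as given above, and its part in this share was not tested. In 38 of the 69 genes an LV-MEIS1 peak overlapped, and in 31 none did. In 29 of these 31, every HOXB13ko-LV-MEIS1 peak of the name lay in an LTR element, the end repeats and internal parts of endogenous retroviruses. PDE4D, ROBO1, FOXP1, SLC16A7, HULC, IGF1, SEMA6D, SEMA3D and ALCAM were among the 29, and AGTR1 and ARHGAP6 were the exceptions.

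Outside the 8 genes with copies, 43 HOXB13ko-LV-MEIS1 peaks of these names overlapped no LV-MEIS1 peak. LTR elements held 38 of them (88.4%, interval 75.5 to 94.9) and ERVL-MaLR elements 27 (62.8%). With the 8 genes kept, the shares were 70.9% and 49.1% of 55 peaks. Over all non-overlapping HOXB13ko-LV-MEIS1 peaks, with copies kept, they were 31.1% and 15.9%. The 55 peaks also lay farther from start sites, at a median of 77.6 kb against 11.1 kb for all. For the 43 peaks, the median distance to the gene's nearest LV-MEIS1 summit was 50.1 kb, and 2 lay within 1 kb. TGACA was near 14.0% of these summits. At LOC730100, 3 peaks of the name lay in such elements, and at LOC730338 2 did, 1 of them at 15.0-fold. When HOXB13ko-LV-MEIS1 peaks in LTR elements were left out, 22.0% of the 168 genes and 12.2% of all names still had a peak of the name.

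In all, 19 of the 168 genes had 2 or more HOXB13ko-LV-MEIS1 peaks of the name. RNU2-1 had 16, LOC102723360 8, and HSPB1, LOC730100 and RNVU1-19 3 each. CARTPT, COBL, TBX3, EHF, RERE, DNAJB8-AS1, MIR8060, AGTR1, FBN2, LINC00448, LINC01881, LOC286178, LOC730338 and ZNF92 had 2 each. Only RNU2-1 and LOC102723360 had at least as many HOXB13ko-LV-MEIS1 as LV-MEIS1 peaks.

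Regulators of transcription stood among the genes with many peaks. Of 98 names on a list of developmental transcription factors and co-repressors, 9 (9.18%) had 4 or more LV-MEIS1 peaks, beside 4.04% of all names. The list was put together with earlier results of these data known and was not tested. Its 9 genes had 52 peaks, and 5 of them (9.62%) overlapped a HOXB13ko-LV-MEIS1 peak, beside 7.66% of all LV-MEIS1 peaks. The 5 were at TBX3, EHF and TLE3.

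TBX3, a T-box repressor, had 8 peaks, with fold enrichments of 10.2, 12.5, 4.87, 5.20, 9.90, 11.6, 5.86 and 3.84 along the chromosome. The peak of 12.5, 27.9 kb downstream of the start site, and the promoter peak of 9.90 overlapped HOXB13ko-LV-MEIS1 peaks of 5.27 and 3.10. The peaks of 11.6, 129 kb upstream, and of 10.2, 72.5 kb downstream, did not. Of the 4 highest TBX3 peaks, 2 were thus overlapped and 2 were not.

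EHF, an epithelial ETS factor, had 6 peaks, of which an intronic peak of 13.9 and an intergenic peak of 10.3 overlapped, with summits 1 and 27 bp apart. Its 2 promoter peaks, 5.66 and 7.84, did not. TLE3, a Groucho-type co-repressor, had 7 peaks, and a peak of 11.1 that lay 1868 bp upstream of the start site overlapped. Its peaks of 10.6 at 1015 bp downstream and of 10.6 at 212 kb upstream did not.

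FOXA1, the forkhead pioneer factor that opens chromatin for the androgen receptor, had 6 peaks of 8.63, 10.9, 6.41, 5.75, 6.69 and 4.60, and none overlapped. They ran from 158 kb to 6733 bp on the 3′ side of the FOXA1 start site, and 4 of them lay within the neighbouring gene MIPOL1. ETV1, an ETS factor, had 5 peaks from 3.93 to 7.58 with TGACA at every summit. FOXP1 had 5 peaks up to 11.1, KLF5 had 4 peaks up to 6.85, and TGIF1, a TALE homeodomain repressor related to MEIS1, had 4 peaks up to 9.38. None of the peaks of ETV1, FOXP1, KLF5 or TGIF1 overlapped a HOXB13ko-LV-MEIS1 peak.

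**Figure D5:**
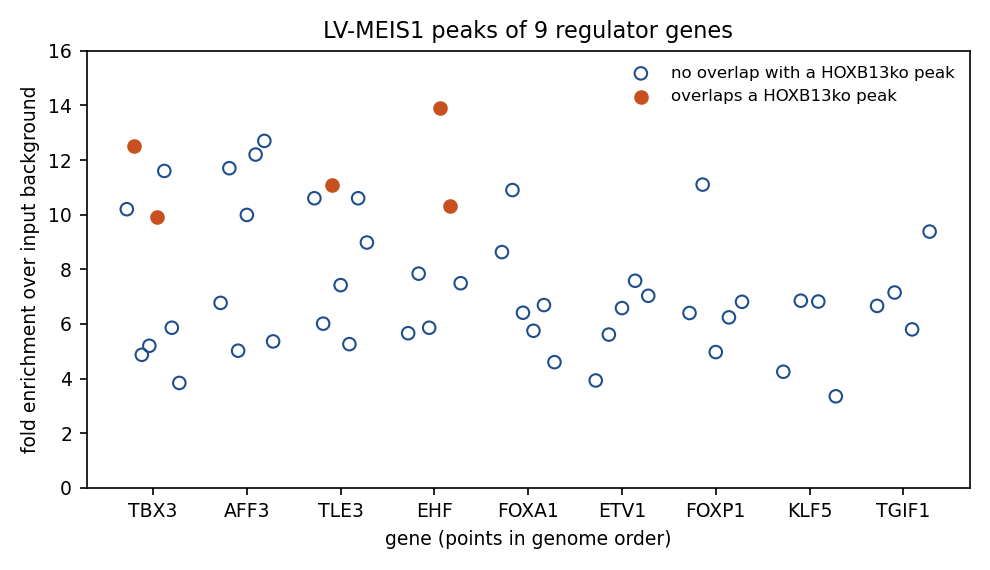
Fold enrichment over the local input background (vertical axis) of each LV-MEIS1 peak of the 9 regulator genes (horizontal axis, points in genome order); filled points overlap a HOXB13ko-LV-MEIS1 peak. The 5 filled points, at TBX3, TLE3 and EHF, lie between 9.90 and 13.9, and open points reach 12.7 at AFF3.

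AFF3, a nuclear protein of the AF4 family, differed in its sequences. Its 7 peaks, all in its introns and none overlapped, had fold enrichments of 6.77, 11.7, 5.02, 9.99, 12.2, 12.7 and 5.36, yet none had TGACA within 50 bp of the summit. TTTAT or TTTAC was near 6 of the 7 summits, beside 72.7% of the 861 summits of the set and 73.6% of those without TGACA. Examples are shown with TTTAT or TTTAC, or the reverse complement of either, in capitals.
AFF3, intron 6, chr2:99999220-99999270: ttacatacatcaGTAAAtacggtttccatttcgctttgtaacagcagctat
AFF3, intron 2, chr2:100065262-100065312: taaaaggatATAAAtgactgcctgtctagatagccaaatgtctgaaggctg
AFF3, intron 2, chr2:100066462-100066512: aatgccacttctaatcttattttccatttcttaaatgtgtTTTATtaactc

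Over the whole set TGACA was near about the same share of summits as over the list. It was within 50 bp of 475 of the 861 summits (55.2%, interval 51.8 to 58.5), beside 56.1% of all LV-MEIS1 summits. The genes varied around this share: TGACA was near every summit in 10 genes, among them CDK14, ETV1, RNLS, BMPR1B, GPM6A, KLHL1 and PDLIM5, and near none in 9, namely AFF3, RNU2-1, C1orf116, LENG9, LINC01037, LOC101927630, LOC101927851, MIR8060 and PER4. The longer word TGACAG was near 24.7% of the summits and 30.4% of all. In windows of the same length centred 500 bp to either side, TGACA was in 21.4% for the set and 18.9% for all LV-MEIS1 peaks. The flanks of the set thus held the core somewhat more often.

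TTTAT and TTTAC, words added after the sequences were seen, were more frequent at these summits than over the list. Either word was near 72.7% of the 861 summits (interval 69.6 to 75.6) and 59.6% of all LV-MEIS1 summits. In the windows 500 bp to either side, the shares were 55.4% and 44.5%, so the flanks differed in the same direction, along with the lower GC content. Among the 386 summits without TGACA, 73.6% had one of the words. A match to a short word is a description of the sequence and not a binding site.

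Receptors of cell adhesion and axon guidance formed a further list. Of its 57 names, 10 (17.5%) had 4 or more peaks, beside 4.04% of all names: EPHA3, SDK1, ROBO1, CDH18, EPHA7, SEMA6D, SLITRK6, PCDH7, SEMA3D and, matched by its prefix, the antisense RNA NLGN1-AS1. Many genes of this group are very long, and they were not compared with other genes of their length. Their 63 peaks had a median fold enrichment of 6.24 and a median distance of 232381 bp. None overlapped a HOXB13ko-LV-MEIS1 peak, beside 7.66% of all LV-MEIS1 peaks and 4.86% of those beyond 100 kb. The highest was at EPHA7, another ephrin receptor, with 14.2-fold.

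Of 21 names on a list of androgen response, steroid metabolism and prostate lineage genes, 5 (23.8%) had 4 or more peaks, beside 4.04% of all names: TBX3, FOXA1, PMEPA1, RNLS and UGT2B10. This list was likewise made with earlier results known, and its share was not tested. RNLS, which encodes renalase, was put on the list by name, and these data hold no value that ties it to androgen or the prostate. Its 5 genes had 29 peaks, of which the 2 at TBX3 (6.9%) overlapped, near the 7.66% of all LV-MEIS1 peaks. TBX3 and FOXA1 stand on the regulator list too, and UGT2B10, a glucuronidation enzyme, is among the genes with copies. The 6 PMEPA1 peaks formed a row of 35.2 kb, 26.6 to 61.8 kb upstream of the start site, with fold enrichments of 6.55, 6.30, 7.94, 4.62, 5.11 and 8.93, and each lay in intergenic DNA.

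Noncoding genes were also listed. Of 1014 such names, chosen by gene type or by the prefixes MIR, LINC and LOC, 61 (6.02%) had 4 or more peaks, beside 4.04% of all names. They held 326 peaks at a median distance of 125 kb, of which 36 (11.0%) overlapped a HOXB13ko-LV-MEIS1 peak, beside 7.66% of all LV-MEIS1 peaks, and 18 of these 36 were at RNU2-1 and RNVU1-18. LOC102723360 entered through its prefix although it is typed as protein-coding. MIR148A, a microRNA gene, had 6 intergenic peaks over 186 kb, and its peak of 12.6, 92.8 kb away, overlapped. MIR8060 had 2 overlapping peaks, of 11.6 and 7.83, without TGACA near either.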

How the data were processed

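MEIS1 ChIP-seq was analysed from the deposited peak lists of the pooled LV-MEIS1 and HOXB13ko-LV-MEIS1 immunoprecipitations, both called against the same input. According to the submitters' processing notes, reads passed through CASAVA 1.8, Trimmomatic 0.38, Bowtie2, SAMtools and Picard 2.18.10, and peaks were annotated with HOMER 4.9.1. The file headers give MACS2 2.1.2, single tags of 50 bases, extension to 200 bp and a q cutoff of 0.01. Coordinates are those of hg38.

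Per the file headers, the deposited lists give a signal column (the scaled pileup at the summit), −log10 p and −log10 q values, and the fold enrichment, a ratio over the local background. The annotated lists of the authors give each peak's distance to the nearest transcription start site and its annotation. The larger LV-MEIS1 pool was scaled to the input by 0.193 and the HOXB13ko-LV-MEIS1 pool by 0.37, so heights were not compared directly between the lists. The local background of a peak was derived from the deposited pileup and fold.

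Genes were kept with at least 4 peaks, and peaks were called overlapping when they shared at least 1 bp. TGACA was sought on both strands within 50 bp of each summit in hg38, and in windows centred 500 bp to either side. Gene types were those of the authors' annotated lists. RefSeq (GRCh38.p14) gave gene lengths, and all 168 genes matched it. It also gave the gene of the intron for 376 of the 379 intron peaks of the set. Shares carry 95% Wilson intervals, which cover counting error only. Each line had 1 pooled list, so no test was made. Calculations used Python 3.11.15, numpy 2.4.6, pandas 2.3.3, scipy 1.17.1, pysam 0.24.0 and matplotlib 3.10.9, and the counting steps were checked on simulated data.

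The members and gene lists were chosen with earlier results of these data known. Genes were named if they had 6 or more peaks, were among the 5 with the highest fold enrichment at any peak, had 2 or more overlapping or HOXB13ko-LV-MEIS1 peaks, were among the 5 shortest or longest spans, stood on a gene list, or lay at the limit of 4 peaks. A further part of that rule, peaks per length of gene territory, was not applied, because territories rebuilt from RefSeq did not match the authors' annotation well enough. Other genes named as examples, the copies of 1 sequence and the words TTTAT and TTTAC were chosen after the data were seen.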

Additional observations from a re-analysis of the deposited data

How the results depend on the processing

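Of 74 values recomputed under other settings, 46 stayed within the 95% interval of the reported share or median, or, for a count of genes or peaks, within 1.5 times of it. The order against the whole list was not stable: the share of overlapping peaks was below that of all LV-MEIS1 peaks as reported, but above it within 100 kb, outside repeats (8.7% against 7.74%) and with a limit of 5 peaks (8.07% against 7.66%), and the share with TGACA was above that of all peaks within 100 bp (69.7% against 69.0%) and without the genes with copies (56.5% against 56.1%). With fold enrichments of at least 5, 106 genes and 518 peaks were left. With peaks within 100 kb of the start site only, there were 60 genes and 299 peaks, 13.0% of peaks overlapped a HOXB13ko-LV-MEIS1 peak (8.42% of all such peaks), the median distance was 23.3 kb and the median span 91.5 kb, TGACA was near 50.2% of summits and promoters held 12.7%. Outside repeats there were 98 genes and 483 peaks, 26.5% of the genes had a HOXB13ko-LV-MEIS1 peak of the name, the median distance was 79.5 kb and promoters held 7.66%. With a limit of 3 peaks there were 361 genes and 1440 peaks, 32.7% of genes had a HOXB13ko-LV-MEIS1 peak of the name, the median distance was 79.0 kb and the median span 147 kb. With a limit of 5 there were 89 genes and 545 peaks, at 115 kb and 313 kb. With an overlap of at least 50% of both peaks, 4.76% overlapped (6.07% of all peaks). TGACAG was near 24.7% of summits. Leaving out the 8 genes with copies gave an overlap of 5.05%, and leaving out HOXB13ko-LV-MEIS1 peaks in LTR elements gave 22.0% of genes with a peak of the name, both chosen after the data were seen. No paired analysis was possible because the immunoprecipitations of each line were pooled into 1 list, and for the same reason no replicate could be left out. The HOXB13ko-LV-MEIS1 pool was shallower, so peaks near the threshold could be missed there.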

Other observations

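The genes with many peaks were unevenly placed on the chromosomes. Over the whole list they held 861 of 5968 LV-MEIS1 peaks. They held 30.1% of the peaks of chromosome 4, 26.2% of chromosome 13, 22.1% of chromosome 7, 21.7% of chromosome 3 and 21.3% of chromosome 5. Chromosomes 12, 15, 20 and 21 had shares from 13.5% to 14.0%. The share was 0.439% on chromosome 19, whose 228 peaks were almost all of genes with fewer peaks. Chromosome 22 held none of them among its 66 peaks.

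The HOXB13ko-LV-MEIS1 list also had genes with many peaks. Of its 1619 gene names, 30 had 4 or more peaks. RNU2-1 and LOC102723360 were the 2 of the 30 that also had 4 or more in the LV-MEIS1 list. Of all names with an LV-MEIS1 peak, 4.04% had 4 or more, and 2 genes are too few to be told apart from that share. RNA28SN5, a 28S ribosomal RNA gene, led with 20 peaks of at most 3.11-fold and no LV-MEIS1 peak, followed by RNU2-1 with 16. EMB (embigin, a cell surface protein) and FCGR2A (an immunoglobulin receptor) had 8 each and no LV-MEIS1 peak. RNU1-1, RNU1-2, PPIAL4D and MGC70870, also among the 30, had 3 LV-MEIS1 peaks each.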
